A study of Mus musculus with 8 samples.

Results

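The nucleolar ribosome biogenesis genes are a listed group of 40 genes whose products make ribosomal RNA (rRNA), modify and cut it, and assemble it into ribosomal subunits. The members are listed by gene name and function, with no threshold on a measured value. Of the 40 genes, 35 were measured, among 15123 genes in all, and the other 5 (Dkc1, Utp20, Wdr43, Wdr75 and Npm3) were not analysed here. The 35 genes were read by 50 probes: 23 genes by 1 probe and 12 by several, at most 4, which were averaged.

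Expression was compared on 8 two-colour microarrays, 2 for each of 4 groups of mouse intestinal crypt cells. On the 6 arrays without LiCl, RNA of Lgr4 null crypts (gene-trap allele Lgr4/Gpr48 Gt, back-crossed to CD1) was set directly against RNA of wild-type CD1 crypts in the other dye. On the LiCl arrays null RNA was set against RNA of wild-type cells by the sample labels and of control cells by the series text. The groups were crypts at culture day 0, after 0.5 days, after 1 day, and after 1 day in which LiCl, an inhibitor of the kinase GSK3 that mimics Wnt signalling, was present. The labels name no promoter or cell type to which the gene trap is limited, no age of the mice and no dose of LiCl. The Lgr4 protein binds R-spondins, which amplify Wnt signals at the crypt base. Whether arrays of 1 group stand for separate animals or cultures is not stated in the labels, so p-values measure the spread between arrays, which may be technical only.

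The nucleolus is the nuclear body in which RNA polymerase I transcribes the rRNA precursor. Small nucleolar ribonucleoprotein particles (snoRNPs) methylate and pseudouridylate that precursor, nucleases and helicases cut and refold it, and assembly factors build the small and the large subunit on it before export to the cytoplasm. Growing and dividing cells make many ribosomes, and in the intestine such cells lie in the crypts, where the transcription factor Myc, a Wnt target, is known to raise genes of this pathway.

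Each value is a log ratio as deposited, taken as log2 of null over wild type, the likely direction since the labels name the null RNA as channel 1. The array medians of all probes lay between -0.006 and 0.001. Only ratios were available, so the level of a gene, its signal over background and the presence of crypt markers could not be checked, and Lgr4 itself was not analysed here. In whole crypt cultures, fewer cells of a type and less RNA per cell cannot be told apart. The direction of the LiCl ratio is not settled, nor is its reference, wild-type or control RNA. Both signs used below take the reference to be wild-type RNA. With another reference, a change from day 1 to LiCl would compare unlike ratios under either sign. Across all probes, each LiCl array correlated below 0 with each of the 6 other arrays (r from -0.493 to -0.086 over 12 pairs). Lyz1, the lysozyme gene of Paneth cells, read from -4.26 to -3.17 on the 6 arrays without LiCl and 0.19 and 0.21 on the LiCl arrays. Counts and changes with LiCl are given as deposited and with the sign turned. Values of single genes at day 1 with LiCl are as deposited, and turning the sign changes their direction and not their size.

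Promoter sequence shows what some of these genes share at their starts, independently of the array values. RefSeq promoter windows (build GRCm38.p6) of 300 bases, from 250 before to 50 after the annotated start, were used. They were matched for 30 of the 35 measured genes, and Fbl, Rrp12, Bop1, Rrs1 and Npm1 had no entry. The motifs searched on both strands were CCGGAA, the core recognised by ETS-family factors, CACGTG, the E-box recognised by Myc with Max, and TCTCGCGA, an element of housekeeping promoters. CCGGAA was found in 16 of the 30 windows (53.3%), against 23.2% of the same-length windows of 12213 measured genes. CACGTG was found in 4 (13.3%, against 9.87%) and TCTCGCGA in 4 (13.3%, against 1.74%). Among the windows of 83 other ribosome biogenesis genes, CCGGAA was found in 54.2%, CACGTG in 21.7% and TCTCGCGA in 3.61%. CCGGAA occurred in 13 of the 26 genes that were lower in null crypts at day 1 and that had a window, and in 3 of the 4 that were not called. A match is a description of the sequence and says nothing of a factor's binding. Only part of the window is shown, the 100 bases that end before the annotated start, for 3 lower genes and for Bysl, which was not called. These stretches are printed 5′ to 3′ on the gene's strand, with the motifs in capitals. They lie at chr11:51619673-51619772 (plus strand) for Nhp2, chr19:46075747-46075846 (plus) for Nolc1, chr6:125131783-125131882 (plus) for Nop2 and chr17:47611493-47611592 (minus) for Bysl.
Nhp2: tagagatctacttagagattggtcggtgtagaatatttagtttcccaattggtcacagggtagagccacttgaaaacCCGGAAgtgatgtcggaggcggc
Nolc1: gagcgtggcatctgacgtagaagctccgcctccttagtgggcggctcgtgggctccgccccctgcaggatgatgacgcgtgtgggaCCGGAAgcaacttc
Nop2: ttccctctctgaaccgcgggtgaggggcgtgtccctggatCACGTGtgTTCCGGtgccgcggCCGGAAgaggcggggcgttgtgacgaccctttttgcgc
Bysl: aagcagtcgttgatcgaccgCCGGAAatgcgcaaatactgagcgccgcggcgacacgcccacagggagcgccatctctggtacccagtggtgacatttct
In Nhp2 the match begins 23 bases before the start. The Nop2 stretch holds an E-box 60 bases before the start and CCGGAA on the minus strand at 52 and on the plus strand at 38.

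The genes as a group were lower in null crypts, by little at day 0 and by about a factor of 2 at day 1. The median fitted log2 ratio of the 35 genes was -0.30 at day 0, -0.44 at day 0.5 and -1.06 at day 1, while the median of all 15123 genes was within 0.01 of 0 in each group. At day 0, 31 of 35 fitted values were below 0 and none passed the test (limma, adjusted p under 0.05, Benjamini-Hochberg over all genes), although 17 had an unadjusted p under 0.05. With the replicate number as a block, 4 passed (Nop56, Noc2l, Npm1 and Gnl3). Of all genes 2.23% passed at day 0 in the fit without the block. At day 0.5, 34 of 35 were below 0, and 2 passed, both lower (0.159% of all genes were called lower), with 22 at an unadjusted p under 0.05. At day 1 all 35 were below 0, and 30 were called lower, against 11.1% of all genes, with none called higher. Of these, 21 were lower by at least 2-fold, against 3.58% of all genes. Both day 1 arrays were below 0 for all 35 genes (33.0% of all genes), both day 0.5 arrays for 33 (28.0%) and both day 0 arrays for 29 (30.7%). Without day 1 replicate 1, 18 of the 30 genes were called at day 1, and without any other single array 27 to 31 genes were. Of the 100 genes with the lowest ratio at day 1, 4 were members of the group, and 18 were among the lowest 500.

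**Figure D1:**
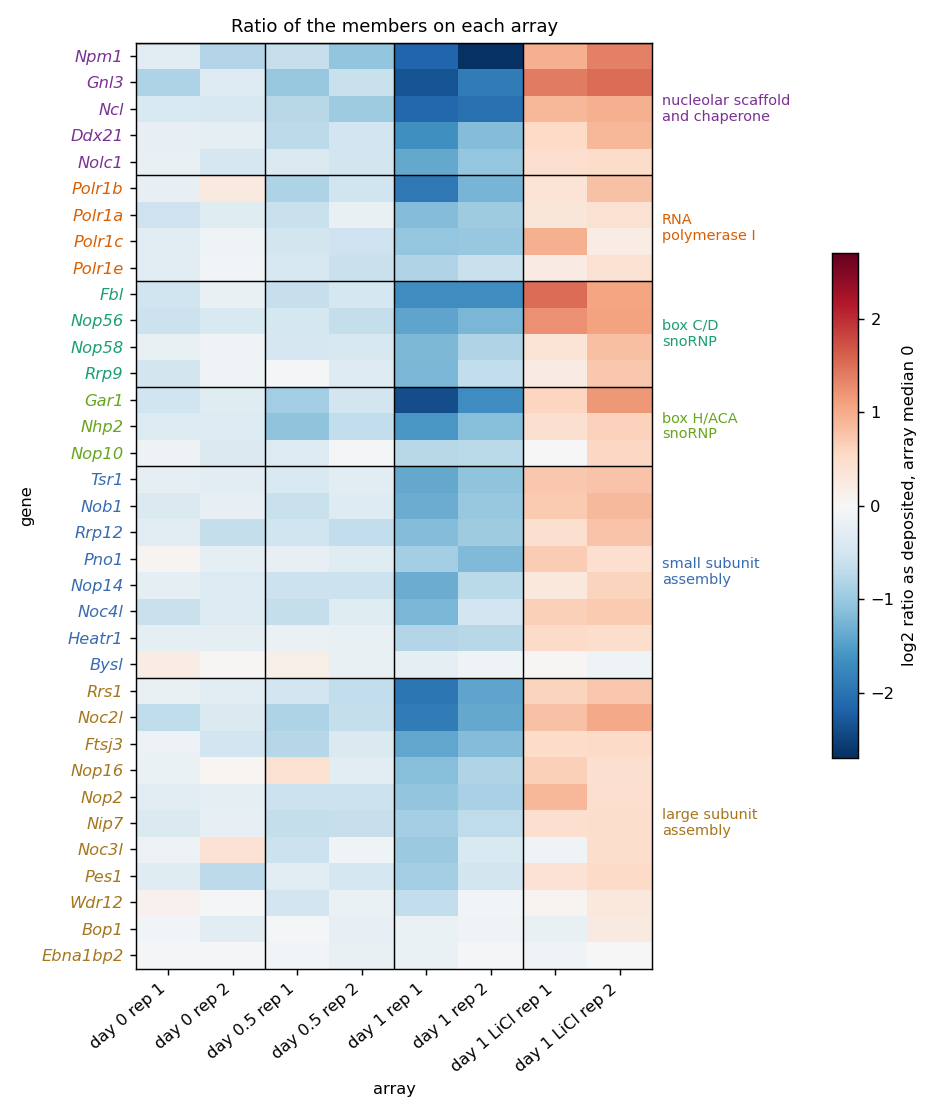
Log2 ratio of each of the 35 measured genes (rows, grouped and coloured by role) on each of the 8 arrays (columns), with blue below 0 and red above 0. Both day 1 columns are blue for all 35 genes, palest for Bysl, Bop1 and Ebna1bp2, and the LiCl columns, as deposited, are mostly red.

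**Figure D2:**
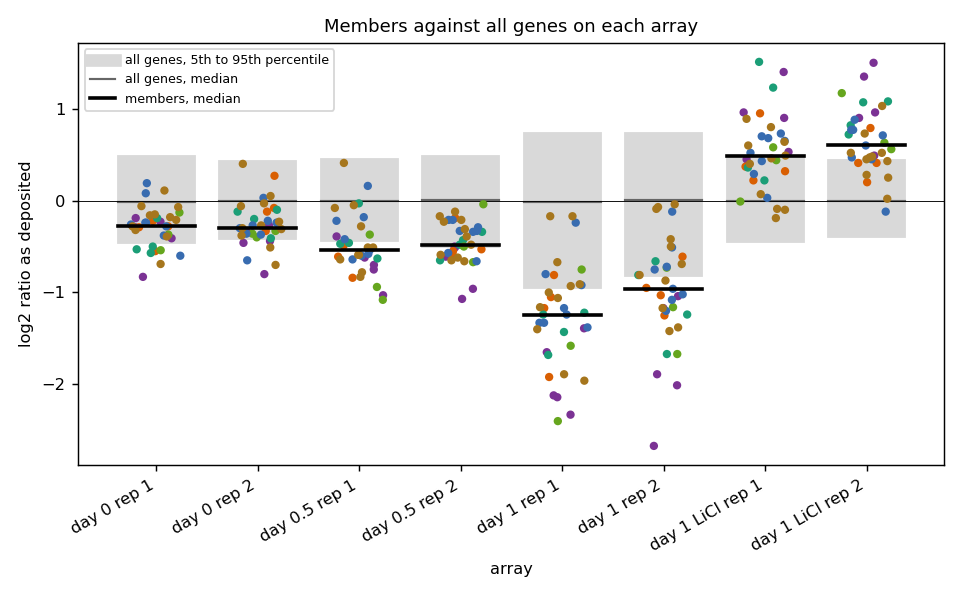
Log2 ratio of the 35 genes (points, coloured by role as in the heat map) on each array, with their median (black line) over the range from the 5th to the 95th percentile of all 15123 genes (grey). The median of the 35 genes was -0.28 and -0.30 on the day 0 arrays, -0.54 and -0.48 at day 0.5, -1.24 and -0.96 at day 1, and 0.49 and 0.60 with LiCl as deposited.

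The nucleolar scaffold and chaperone genes had the lowest ratios at day 1, with a median of -2.07 and all 5 called lower. Npm1, nucleophosmin, the abundant chaperone of the outer nucleolar zone, read -0.29 and -0.80 at day 0, -0.62 and -1.07 at day 0.5 and -2.14 and -2.67 at day 1. Both day 1 arrays lay below all 4 earlier ones, while day 0 and day 0.5 overlapped. The fitted ratio at day 1 was -2.40 ± 0.12 (SE, 2 arrays), or 5.29-fold lower in null crypts (limma adjusted p = 8.18e-05). Its 2 probes agreed at day 1 (mean -2.41 and -2.40), but 1 of them read 0.18 and -1.10 on the day 0 arrays. Npm1 also has processed pseudogenes in the genome, whose transcripts a probe may not tell apart.

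Gnl3, nucleostemin, a nucleolar GTPase found in stem and dividing cells, read -0.83 and -0.35 at day 0, -1.03 and -0.61 at day 0.5 and -2.33 and -1.89 at day 1. The day 1 arrays were again the lowest of the 6. It was 4.32-fold lower at day 1 (-2.11 ± 0.15, limma adjusted p = 0.000223). Ncl, nucleolin, which binds nascent rRNA precursor, read -0.41 and -0.44, then -0.75 and -0.96, then -2.12 and -2.01, so that the 3 days did not overlap on any array. It was 4.19-fold lower at day 1 (-2.07 ± 0.10, limma adjusted p = 7.74e-05). Ddx21, an RNA helicase that joins RNA polymerase I transcription to processing, was also called lower (-1.41 ± 0.15), and Nolc1, a chaperone of snoRNPs, was the member of this role closest to 0 (-1.22 ± 0.12, limma adjusted p = 0.000769).

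All 4 measured subunits of RNA polymerase I, the enzyme that transcribes rRNA, were called lower at day 1, with a median of -1.05. Polr1b, which forms the catalytic core with Polr1a, read -0.22 and 0.27 at day 0, -0.84 and -0.53 at day 0.5 and -1.92 and -1.25 at day 1. The day 0 arrays lay on either side of 0, and each later day lay below the one before on both arrays. It was 2.99-fold lower at day 1 (-1.58 ± 0.19, limma adjusted p = 0.00142). Polr1a, the largest subunit, read -1.17 and -0.95 at day 1, both below the day 0 arrays (-0.55 and -0.33) and the day 0.5 arrays (-0.61 and -0.19). It was 2.08-fold lower (-1.06 ± 0.13, limma adjusted p = 0.00152). Polr1c, a subunit shared with RNA polymerase III, was 2.06-fold lower (-1.04 ± 0.14), and Polr1e, a subunit particular to the enzyme, was the closest to 0 (-0.71 ± 0.11, limma adjusted p = 0.00436).

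The box C/D snoRNPs guide ribose methylation of rRNA, and their 4 measured proteins were all called lower at day 1 (median -1.18). Fbl, fibrillarin, the methyltransferase itself, read -0.53 and -0.20 at day 0, -0.63 and -0.48 at day 0.5 and -1.68 and -1.67 at day 1. The day 0 and day 0.5 arrays overlapped, and the day 1 arrays stood apart below them. Fbl was 3.20-fold lower at day 1 (-1.68 ± 0.11, limma adjusted p = 0.000189). Its scaffold partner Nop56 read -1.43 and -1.24 at day 1 and was 2.52-fold lower (-1.33 ± 0.10, limma adjusted p = 0.000252). The other scaffold protein Nop58 read -1.22 and -0.81 (-1.02 ± 0.15), and Rrp9, a protein of the snoRNP that serves early precursor cleavage, read -1.24 and -0.66 and was the closest of the 4 to 0 (-0.95 ± 0.19, limma adjusted p = 0.0109).

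The box H/ACA snoRNPs guide pseudouridylation, and the 3 measured proteins were all called lower at day 1 (median -1.37). Gar1, which helps the enzyme take and release its substrate, read -0.54 and -0.33 at day 0, -0.94 and -0.50 at day 0.5 and -2.40 and -1.67 at day 1. The day 1 arrays differed from each other by more than the day 0 arrays did, and both were lower than all earlier arrays. Gar1 was 4.10-fold lower at day 1 (-2.04 ± 0.21, limma adjusted p = 0.00086). Nhp2, an RNA-binding protein of the particle, read -0.37 and -0.36, then -1.08 and -0.67, then -1.58 and -1.16, with no overlap between days, and was 2.58-fold lower at day 1 (-1.37 ± 0.14, limma adjusted p = 0.000866). Nop10, a small protein of the same particle, read -0.75 and -0.73 at day 1 and was the closest to 0 (-0.74 ± 0.13, limma adjusted p = 0.00793). Dyskerin, the pseudouridine synthase of the particle, is the product of Dkc1 and was not analysed here.

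Of the 8 small subunit assembly genes, 7 were called lower at day 1 (median -1.04). Tsr1, a factor of late small-subunit maturation, read -0.24 and -0.30 at day 0, -0.42 and -0.29 at day 0.5 and -1.38 and -1.08 at day 1. The first 4 values lay close together and the day 1 values lay below all of them. Tsr1 was 2.34-fold lower (-1.23 ± 0.11, limma adjusted p = 0.000433). Nob1, the endonuclease that makes the final cut of the small-subunit rRNA, read -1.33 and -1.02 and was 2.26-fold lower (-1.18 ± 0.12), and its partner Pno1 read -0.92 and -1.20 (-1.06 ± 0.12). Rrp12, an export factor of the pre-ribosome, was 2.10-fold lower (-1.07 ± 0.13). The early processome proteins were also called, Nop14 at -1.02 ± 0.16, Noc4l at -0.87 ± 0.15 and Heatr1 at -0.78 ± 0.09. Bysl, bystin, which acts on the small-subunit precursor, was the exception. It read 0.19 and 0.03 at day 0, 0.16 and -0.21 at day 0.5 and -0.24 and -0.12 at day 1, and its fitted value of -0.18 ± 0.12 did not pass (limma adjusted p = 0.424).

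The 11 large subunit assembly genes varied most in outcome, with 7 called lower at day 1, 4 not called and a median of -0.80. Rrs1, which brings a ribonucleoprotein into the large-subunit precursor, read -0.21 and -0.30 at day 0, -0.51 and -0.66 at day 0.5 and -1.96 and -1.42 at day 1. The days did not overlap on any array. Rrs1 was 3.22-fold lower at day 1 (-1.69 ± 0.14, limma adjusted p = 0.000363). Noc2l read -1.89 and -1.38 at day 1 and was 3.11-fold lower (-1.64 ± 0.14, limma adjusted p = 0.000409). Its yeast counterpart forms a complex with that of Noc3l that moves with the large-subunit precursor. Noc3l itself read -1.0 and -0.42 at day 1, below both day 0.5 arrays on 1 array only, and narrowly missed the threshold (-0.71 ± 0.22, limma adjusted p = 0.0599). Ftsj3, a factor of precursor processing with a methyltransferase domain, was 2.43-fold lower (-1.28 ± 0.14). Nop16 (-0.99 ± 0.16), the rRNA methyltransferase Nop2 (-0.96 ± 0.11) and Nip7 (-0.80 ± 0.10) were called lower as well.

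The PeBoW complex, in which Pes1, Bop1 and Wdr12 act together in large-subunit processing, gave unequal ratios. Pes1 read -0.93 and -0.50 at day 1 and was called lower (-0.71 ± 0.15, limma adjusted p = 0.0134), although its day 0 arrays already read -0.32 and -0.70 and overlapped with day 1. Wdr12 read 0.11 and -0.06 at day 0 and -0.67 and -0.07 at day 1, so that 1 array carried its fitted value of -0.37 ± 0.16 (limma adjusted p = 0.185). Bop1 read -0.07 and -0.31 at day 0 and -0.17 and -0.09 at day 1, with no separation between the days (-0.13 ± 0.12, limma adjusted p = 0.581). Differences between these 3 genes were not tested. Ebna1bp2, another large-subunit factor, read -0.17 and -0.04 at day 1 and had the value closest to 0 of all 35 genes (-0.11 ± 0.10, limma adjusted p = 0.589).

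**Figure D3:**
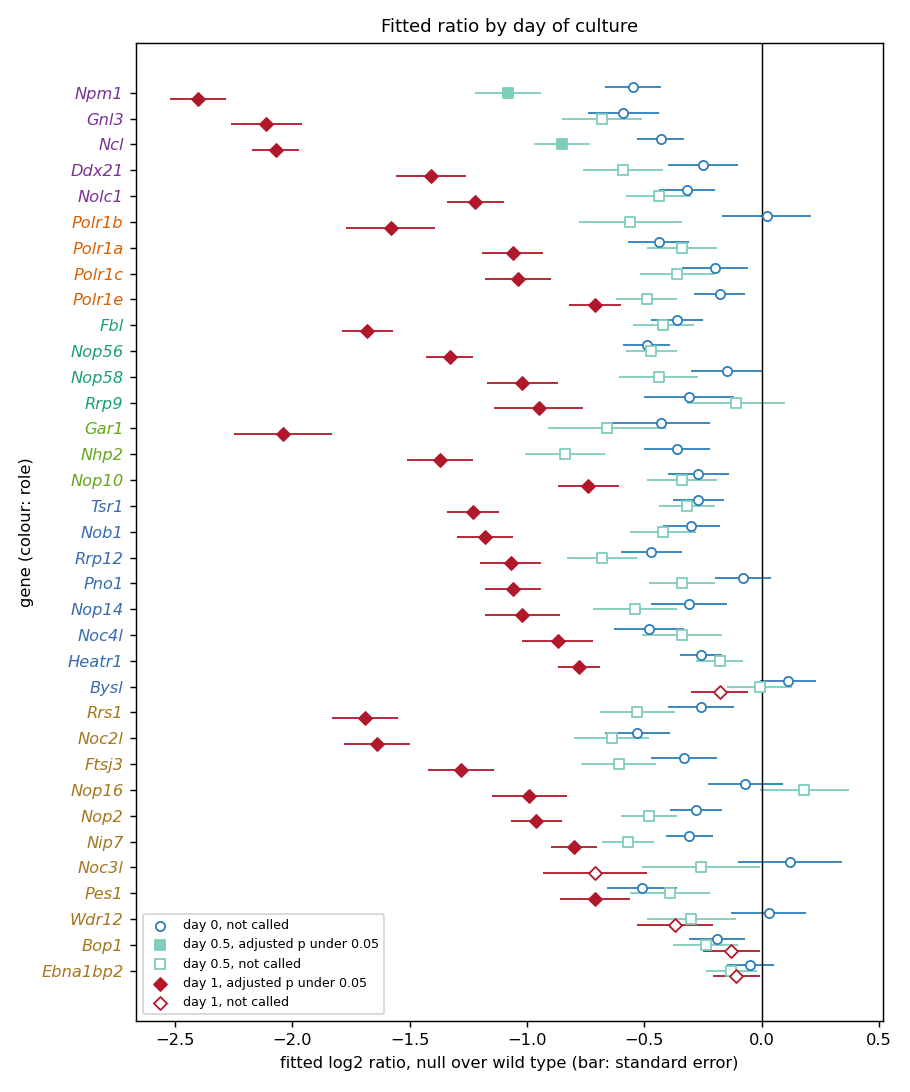
Fitted log2 ratio (likely null over wild type) with its standard error (bars) for each of the 35 genes on the 3 culture days, each with 2 arrays. Filled symbols passed the test: none at day 0, Npm1 and Ncl at day 0.5, and 30 at day 1, where Noc3l, Wdr12, Bop1, Ebna1bp2 and Bysl did not.

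Single probes showed how much of a gene's value depended on the probe. Of the 12 genes with several probes, 4 had probe means at day 1 that spread by an SD above 0.5. Heatr1 had 4 probes, of which a pair averaged -1.44 and -1.52 and the other pair -0.08 and -0.07. Nip7 had 3, at -1.28, -1.29 and 0.17. Nop58 had a probe at -1.71 and another at -0.33, and Polr1e a probe at -1.33 and another at -0.09. In each of the 4 genes at least 1 probe lay below -1 on both day 1 arrays, and at least 1 stayed between -0.62 and 0.23, so the averaged ratio lies between them. The probes of Npm1, Ncl, Nolc1, Polr1c and Pes1 agreed closely, and Ncl averaged -2.13 and -2.00.

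**Figure D4:**
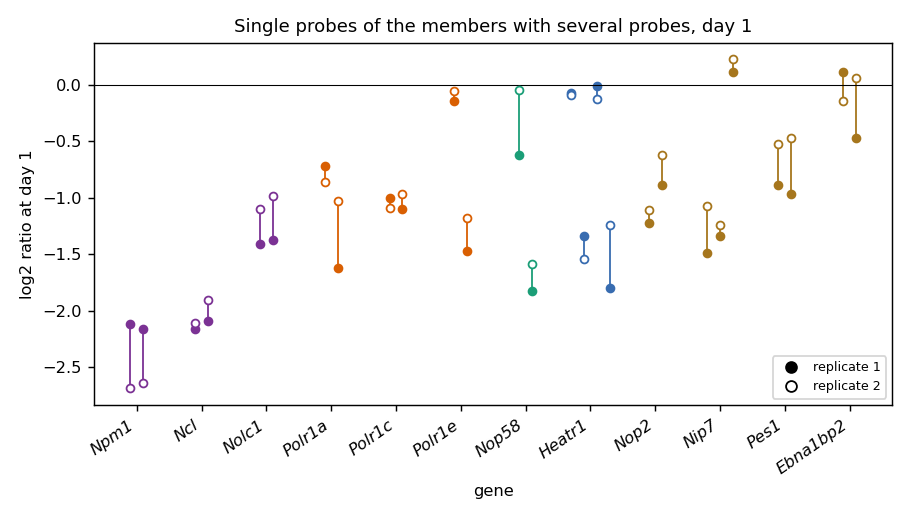
Log2 ratio of every single probe at day 1 for the 12 genes with several probes, with a line joining replicate 1 (filled) and replicate 2 (open) of a probe. The probes of Heatr1, Nip7, Nop58 and Polr1e fall into a low and a near-0 set, while those of Npm1 and Ncl all lie below -1.9.

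The change between days asks whether the genotype difference grew in culture. From day 0 to day 0.5 none of the 35 genes passed the test in limma (2 had an unadjusted p under 0.05, median change -0.16, and 0.132% of all genes passed). Both day 0.5 arrays lay below both day 0 arrays for 13 genes, against 18.0% of all genes. At day 0.5 itself Npm1 (-1.08 ± 0.14, limma adjusted p = 0.0373) and Ncl (-0.85 ± 0.12, limma adjusted p = 0.0407) were called lower. These fitted values are adjusted for dye, since the null RNA was labelled Cy5 on both day 0.5 arrays, and they differ from the means of the arrays. The count of 2 became 1 without day 0.5 replicate 1 and 0 without any other single array, with 17 to 25 genes then at an unadjusted p under 0.05, and it was 8 with no dye term. With the replicate block it was 5, with Nhp2, Noc2l and Gnl3 added, and the share of all genes with the block is not given here.

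From day 0 to day 1, the change was below 0 for 34 of the 35 genes (median change of all 35 -0.84). The fall passed the test in limma for 19 of the 35, against 4.79% of all genes. The largest changes were in Npm1 (-1.86 ± 0.18, limma adjusted p = 0.0026), Ncl (-1.64 ± 0.14, limma adjusted p = 0.00217), Gar1 (-1.60 ± 0.30, limma adjusted p = 0.0222) and Polr1b (-1.60 ± 0.27, limma adjusted p = 0.0141). Gnl3 changed by -1.52 ± 0.21, Rrs1 by -1.43 ± 0.19, Fbl by -1.31 ± 0.16 and Noc2l by -1.10 ± 0.20. All 5 scaffold and chaperone genes passed, as did 3 of 4 box C/D, 2 of 3 box H/ACA, 2 of 4 polymerase, 3 of 8 small subunit and 4 of 11 large subunit genes. Smaller changes that passed were those of Nhp2 (-1.01 ± 0.20), Pno1 (-0.98 ± 0.17), Tsr1 (-0.95 ± 0.15), Ftsj3 (-0.95 ± 0.20), Nob1 (-0.87 ± 0.17), Nop58 (-0.87 ± 0.21), Nop56 (-0.84 ± 0.14) and Polr1c (-0.84 ± 0.19). Ddx21 (-1.16 ± 0.21), Nolc1 (-0.89 ± 0.18) and Nop2 (-0.68 ± 0.15) completed the 19. Pes1, called at day 1, changed by -0.21 ± 0.21 since day 0. Both day 1 arrays lay below both day 0 arrays for 31 genes, against 24.8% of all genes. The count of 19 rested on single arrays, with 1 and 2 genes without day 0 replicate 1 and 2, 3 and 12 without day 1 replicate 1 and 2, and 17 to 20 without any other array. In limma 25, 23, 20 and 32 genes then had an unadjusted p under 0.05 in the same order. When the arrays were scaled to equal spread, which shrinks the wider day 1 ratios of all genes, the count was 3, with 20 at an unadjusted p under 0.05 and a median change of -0.61.

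From day 0.5 to day 1, in a comparison that shares the day 1 arrays with the former, 33 of the 35 changes were below 0 (median -0.68). The fall passed for 7 genes, against 1.43% of all genes in the same fit. With the replicate block it passed for 13, and the share of all genes with the block is not given here. The 7 were Gnl3 (-1.43 ± 0.22), Npm1 (-1.32 ± 0.19), Fbl (-1.25 ± 0.17), Ncl (-1.21 ± 0.15), Rrs1 (-1.16 ± 0.21), Tsr1 (-0.90 ± 0.16) and Nop56 (-0.86 ± 0.15), with limma adjusted p from 0.0178 to 0.0469. Both day 1 arrays lay below both day 0.5 arrays for 29 genes, against 23.3% of all genes. Without either day 0 array, day 0.5 replicate 1 or day 1 replicate 1 no gene was called in limma (11 to 22 at an unadjusted p under 0.05), and without day 1 replicate 2 and day 0.5 replicate 2 it was 1 and 3 genes. With arrays scaled to equal spread it was 0 as well, with 11 at an unadjusted p under 0.05. For 11 genes the 3 days were ordered on every array, day 1 below day 0.5 below day 0, against 4.32% of all genes. These were Polr1b, Polr1c, Polr1e, Nop58, Nhp2, Nop14, Nop2, Rrs1, Nip7, Ncl and Ddx21. The order is that of averaged probes, and not every probe of Nip7, Nop58 and Polr1e kept it. In Nip7 1 probe read 0.10 and -0.12 at day 0, 0.06 and -0.81 at day 0.5 and 0.12 and 0.23 at day 1.

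With LiCl at day 1, the ratio of 33 of the 35 genes was above 0 as deposited, with a median of 0.56 and 10 genes called, against 1.37% of all genes called higher. With the sign turned, 33 lay below 0 and 19 were called lower, against 2.59% of all genes. Gnl3 read 1.4 and 1.5 as deposited and was fitted at 1.45 ± 0.15 (2.73-fold, limma adjusted p = 0.0116). Fbl read 1.51 and 1.07 (1.29 ± 0.11, 2.45-fold, limma adjusted p = 0.00966), and Nop56 read 1.23 and 1.08 (1.16 ± 0.10). Npm1 read 0.96 and 1.35 (1.15 ± 0.12) and Ncl 0.90 and 0.96 (0.93 ± 0.10). Thus the 2 arrays of each of these genes lay on 1 side of 0, in whichever direction the ratio runs. Noc2l (0.91 ± 0.14), Nob1 (0.79 ± 0.12), Tsr1 (0.75 ± 0.11), Nop2 (0.67 ± 0.11) and Heatr1 (0.50 ± 0.09) were called too. With the sign turned the same 10 genes and 9 others were called lower. The 9 were Polr1b (-0.58), Nop58 (-0.59), Gar1 (-0.87), Noc4l (-0.68), Pno1 (-0.56), Rrp12 (-0.60), Rrs1 (-0.66), Nip7 (-0.47) and Ddx21 (-0.72), with limma adjusted p from 0.0159 to 0.0466. Of the genes not called at day 1 without LiCl, none was called with LiCl in either direction of the ratio. They read, as deposited, -0.05 ± 0.12 for Bysl, -0.03 ± 0.10 for Ebna1bp2, 0.03 ± 0.12 for Bop1, 0.18 ± 0.22 for Noc3l and 0.17 ± 0.16 for Wdr12. Both LiCl arrays lay above 0 for 30 genes, against 30.2% of all genes. The count of 10 became 0 without either LiCl array (26 and 12 genes at an unadjusted p under 0.05 in limma) and 5 without either day 0 array, and it was 21 with the replicate block. With the sign turned the count of 19 became 0 without either LiCl array (20 and 22 genes at an unadjusted p under 0.05 in limma).

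From day 1 to day 1 with LiCl the rise of the ratio passed the test for 30 genes as deposited (10.4% of all genes, median change 1.62). With the LiCl sign turned it passed for 9 (3.74% of all genes, median change 0.47). All 35 changes were above 0 in both directions of the LiCl ratio. Both directions take the reference of the LiCl arrays to be wild-type RNA, which is not settled. Npm1 rose by 3.56 ± 0.18 as deposited and by 1.25 ± 0.25 with the sign turned (limma adjusted p = 1e-04 and 0.0288). Ncl rose by 3.00 ± 0.14 and 1.14 ± 0.14, Gar1 by 2.91 ± 0.30 and 1.16 ± 0.19, Rrs1 by 2.35 ± 0.19 and 1.02 ± 0.17, Polr1b by 2.16 ± 0.27 and 1.00 ± 0.15, and Noc2l by 2.55 ± 0.20 and 0.72 ± 0.14. For these 6 genes, and for Polr1a, Nhp2 and Nolc1, the change passed in both directions. Polr1a passed narrowly with the sign turned (limma adjusted p = 0.0498). Its 2 probes averaged 0.74 and -0.02 with LiCl as deposited. For others the change passed only as deposited. Gnl3 was at 3.56 ± 0.21 against 0.66 ± 0.18 with the sign turned, and Fbl at 2.97 ± 0.16 against 0.39 ± 0.19. Nop56 was at 2.49 ± 0.14 against 0.18 ± 0.15 and Ddx21 at 2.12 ± 0.21 against 0.69 ± 0.17. Both LiCl arrays lay above both day 1 arrays for 33 genes as deposited (27.7% of all genes) and for 27 with the sign turned (24.7%). The count of 9 with the sign turned became 0 without day 1 replicate 1 or LiCl replicate 1 and 1 without day 1 replicate 2 or LiCl replicate 2 (11, 17, 17 and 15 genes at an unadjusted p under 0.05 in limma, in that order). This change shares the day 1 arrays with both changes over time.

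**Figure D5:**
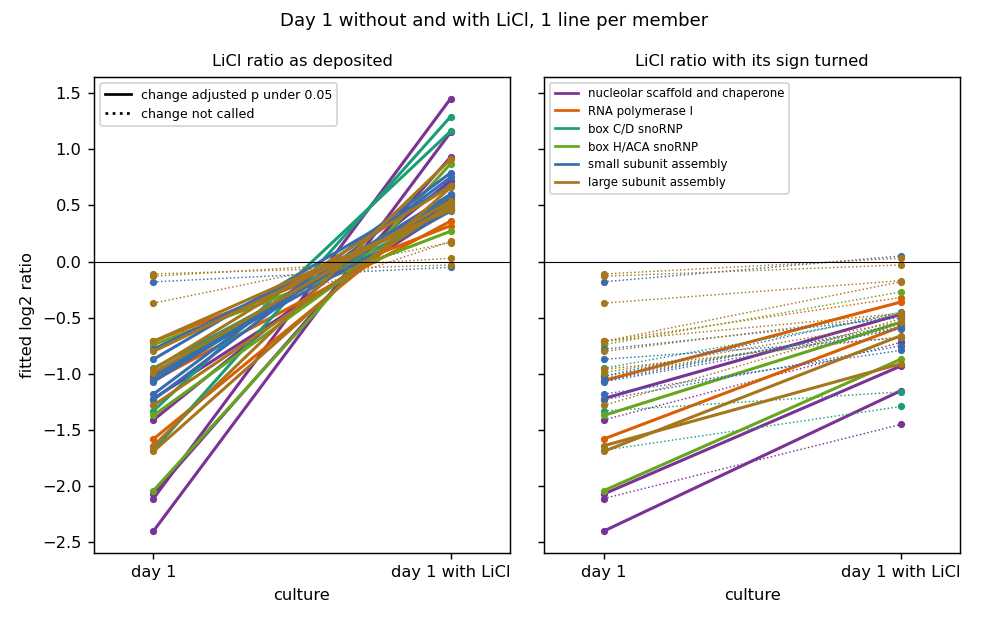
Fitted log2 ratio at day 1 and at day 1 with LiCl, 1 line per gene coloured by role, with the LiCl ratio as deposited (left) and with its sign turned (right). Solid lines mark changes that passed the test, 30 on the left and 9 on the right, and every line rises in both panels.

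Other genes of the pathway, from a list of further ribosome biogenesis factors of which 97 were measured, also had lower ratios at day 1. Of these, 62 were called lower and none higher (median -0.64), against 11.1% of all genes called lower. The lowest were Lyar, a nucleolar zinc-finger protein, at -2.51 and -2.37 on the day 1 arrays (-2.44 ± 0.10), Rrp15, a large-subunit factor, at -2.43 and -2.15 (-2.29 ± 0.12), and Exosc8, a subunit of the RNA exosome, at -2.46 and -1.96 (-2.21 ± 0.13). From day 0 to day 1 the change was below 0 for 89 of the 97, and the fall passed for 20, against 4.79% of all genes. With LiCl 14 were called higher as deposited and 20 lower with the sign turned, against 1.37% and 2.59% of all genes. Among 7 growth regulators Myc read 0.05 and -0.40 at day 0, -0.46 and -0.94 at day 0.5 and -0.54 and -0.90 at day 1. It was called lower at day 1 (-0.72 ± 0.15, limma adjusted p = 0.0153), and its day 0.5 and day 1 arrays overlapped, with a change between those days of 0.09 ± 0.23. Mxd1 and Mxi1, which compete with Myc for the partner Max, were called higher at day 1 (1.27 ± 0.21 and 0.43 ± 0.11). The other 4 regulators (Mycn, Max, Mxd4 and Mnt) were not called at day 1, and the median of the 7 was 0.12. From day 0 to day 1 the change passed for 0 of the 7, with 1 at an unadjusted p under 0.05.

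Markers of several cell types also differed at day 1. Of all 15123 genes, 1685 were called lower and 1418 higher at day 1, and 152 lower and 185 higher at day 0. Between those days the change passed as a fall for 725 and as a rise for 544. Of 8 cycling cell genes all were called lower at day 1 (median -2.34, from Top2a at -2.57 to Pcna at -0.99), none at day 0 (5 at an unadjusted p under 0.05, median -0.31), and for all 8 the ratio fell between those days. Of 7 crypt stem cell genes 7 were called lower at day 1 (median -1.64) and 2 at day 0. Paneth cell genes were lower on both days, 5 of 5 at day 0 (median -1.24) and 5 of 5 at day 1 (median -2.38). Between those days the change passed only for Mmp7 (-1.32), and 4 of the 5 changes were above 0 (median 0.30). Of 8 enterocyte genes 5 were called higher at day 1 (median 0.87). Immune cell genes were lower for 6 of 7 at day 0 and 2 of 7 at day 1, mesenchyme genes lower for 2 of 10 at day 0 and higher for 1 of 10 at day 1 (Vim, 1.02), and none of 6 endothelial genes was called at either day (1 at an unadjusted p under 0.05 at each). From day 1 to day 1 with LiCl the ratio rose, in both directions of the LiCl ratio, for all 8 cycling cell genes (median change 3.20 as deposited, 1.36 with the sign turned), all 7 stem cell genes (1.64 in both) and all 5 Paneth cell genes (2.46 and 2.24). Of the 8 enterocyte genes the fall passed for 6 as deposited (median change -1.61) and for 2 with the sign turned (-0.19). Among all 15123 genes the rise passed for 1566 and the fall for 1290 as deposited. With the sign turned the rise passed for 566. Only ratios were available, so the level of these markers is not known, and their part in the ratios of the ribosome biogenesis genes was not tested.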

How the data were processed

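The values deposited by the authors are log ratios of the channels, 1 per probe and array, taken as log2. Per the labels' protocols, RNA was amplified, dye-coupled (Cy5, Cy3) and hybridised to long-oligonucleotide MEEBO arrays. How background was corrected and values normalized was not given in the sources used here. Samples were grouped by their titles. Per the labels, Cy5 marked the null RNA on replicate 1 and Cy3 marked it on replicate 2 at day 0 and day 1, the order was reversed with LiCl, and at day 0.5 both arrays had it in Cy5.

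Of 38467 probes, 22941 had 1 gene symbol in the platform annotation, 0 several and 15526 none. Leaving out 636 named control probes left 22305 probes of 15123 genes. Arrays were centred on their median and probes of a gene averaged. No intensity was available, so no filter on dim probes was set. The number of arrays limits the precision. limma 3.58.1 (R 4.3.3) fitted all 8 arrays with a mean per group and a term for the dye of the null RNA, then eBayes (3 residual and 4.09 prior degrees of freedom), and p-values were adjusted over all genes by Benjamini-Hochberg, with 0.05 as the threshold. The fit was tested on simulated data. Python 3.11.15, pandas 2.3.3, numpy 2.4.6 and matplotlib 3.10.9 were used for tables and figures.

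The genes, marker lists and tests were chosen with earlier results of these data known. All measured genes of the group are named. Full statistics were given for at most 3 genes of each role with the largest value at day 1 and for the change from day 0, for at most 10 genes in other comparisons, for the gene of each role closest to 0 at day 1, for Myc, and for genes whose probes disagreed. Alternatives were the dye term, a replicate block, day 0.5 replicate 2 as a dye swap, equal spread, no centring, the median over probes, leaving out the LiCl arrays or each array, and the LiCl sign. Same-numbered arrays deviated together from their group means across genes, with correlations of 0.21 to 0.278 for all 6 pairs of groups. At day 0 and day 1 same-numbered arrays also share the dye of the null RNA, so for that pair (0.265) number and dye cannot be told apart. The labels do not say what else the numbers share. Results with the number as a block are given where they moved a count by over 1.5 times. The shares of all genes given in the text are of fits without the block, so no count with the block has its own share beside it.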

Additional observations from a re-analysis of the deposited data

Results flagged for a closer look

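The results here are those for which the ratio changed between groups by the limma test of the change itself. From day 0 to day 1 this held for 19 of the 35 genes. By role the changes were -1.86 for Npm1, -1.64 for Ncl and -1.52 for Gnl3 among scaffold and chaperone genes, -1.60 for Polr1b and -0.84 for Polr1c in RNA polymerase I, and -1.31 for Fbl, -0.87 for Nop58 and -0.84 for Nop56 in the box C/D particle. They were -1.60 for Gar1 and -1.01 for Nhp2 in the box H/ACA particle, -0.98 for Pno1, -0.95 for Tsr1 and -0.87 for Nob1 in the small subunit, and -1.43 for Rrs1, -1.10 for Noc2l and -0.95 for Ftsj3 in the large subunit.

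From day 0.5 to day 1 the change passed for 7 genes, with -1.43 for Gnl3, -1.32 for Npm1, -1.25 for Fbl, -1.21 for Ncl, -1.16 for Rrs1, -0.90 for Tsr1 and -0.86 for Nop56.

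From day 1 to day 1 with LiCl the change passed for 30 genes as deposited, where neither the direction nor the reference of the LiCl ratio is settled. The values were 3.56 for both Gnl3 and Npm1, 3.00 for Ncl, 2.97 for Fbl, 2.91 for Gar1, 2.55 for Noc2l, 2.49 for Nop56, 2.35 for Rrs1, 2.16 for Polr1b and 2.12 for Ddx21. With the LiCl sign turned 9 genes passed. The values were then 1.25 for Npm1, 1.16 for Gar1, 1.14 for Ncl, 1.02 for Rrs1, 1.0 for Polr1b and 0.72 for Noc2l, which passed. They were 0.69 for Ddx21, 0.66 for Gnl3, 0.39 for Fbl and 0.18 for Nop56, which did not (limma adjusted p 0.0508, 0.0774, 0.335 and 0.661). Paneth cell genes had a median ratio of -2.38 at day 1 and 0.20 with LiCl as deposited, where none of the 5 was called and none had an unadjusted p under 0.05 in limma.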

How the results depend on the processing

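Counts are of the 35 genes called in limma. For results other than the change from day 1 to LiCl, turning the LiCl sign was chosen after seeing the data, as were the repeats of LiCl results with the sign turned. At day 0 the count of 0 became 1 with no dye term, with day 0.5 replicate 2 as a dye swap or with the LiCl sign turned, and stayed at 0 without each single array (3 to 19 at an unadjusted p under 0.05). At day 0.5 the count of 2 became 8 with no dye term or with the dye swap, 0 with equal spread or without both LiCl arrays (21 and 22 at an unadjusted p under 0.05), and 0 to 1 without single arrays. At day 1 the 30 ranged from 18 to 31 without single arrays and was within a factor of 1.5 of 30 in the other fits. With LiCl the 10 became 24 with equal spread, 19 (lower) with the sign turned, and 0 to 9 without single arrays. The 19 changes from day 0 to day 1 became 3 with equal spread and 1 to 20 without single arrays. The 7 from day 0.5 to day 1 became 11 with no dye term, 0 with equal spread, 15 with the LiCl sign turned and 0 to 8 without single arrays. The 30 from day 1 to LiCl became 9 with the sign turned and 26 to 31 without single arrays. With the LiCl sign turned the 19 genes called with LiCl became 0 to 21 without single arrays and 19 with the replicate block, and the 9 changes became 0 to 13 and 8. The causes of these shifts were not tested. With the replicate block the counts were 4 at day 0, 5 at day 0.5, 21 with LiCl and 13 from day 0.5 to day 1. The count was 31 for day 1 itself, 23 for the change since day 0 and 31 for the change with LiCl. Whether calls among all genes also rose with the block is not given here. Over 63 results of named genes and their alternatives, 749 of 935 repeats kept the call and direction, 186 lost the call and 0 reversed. Turning the sign of single-gene values at day 1 with LiCl, which reverses them by construction, is not among these. The 63 results were picked as called in the main fit, and the repeats reuse its arrays, so a kept direction is no independent test. Depth is unknown, because no intensities were available.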
